A study of Mus musculus with 35 samples.

Results

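The proteasome genes of primary mouse embryonic fibroblasts (MEFs) were followed after exposure to methyl methanesulfonate (MMS), an alkylating agent that transfers methyl groups to DNA. A gene was taken as a member if its annotated symbol was Psm, a letter from a to g and a number, which gave 47 of the 18194 genes on the arrays, and 45 of them were among the 14135 genes bright enough to be tested. Expression had been measured on 35 Affymetrix arrays. Primary C57BL6/J MEFs, with no altered allele named for any group, were plated, and the medium was replaced after a day by fresh medium alone (control) or by fresh medium with MMS at 40 μg/mL. The control groups were taken at 0, 1, 8, 24 and 72 h and the MMS groups at 1, 8, 24 and 72 h, with 4 arrays in each group except MMS at 72 h, which had 3. The replicates are described as biological but not as separate cultures, so the p-values reflect the spread among the arrays of a group, which may be in part technical. In cultures of many cells, fewer cells of a type and less RNA per cell cannot be told apart.

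The proteasome is the main protease of the cytosol and nucleus and degrades proteins that carry ubiquitin chains. Its barrel-shaped core particle is built from alpha subunits (Psma genes), which form the outer rings and gate, and beta subunits (Psmb genes), some of which hold the catalytic sites. A regulatory particle caps the barrel: its base holds the ATPases (Psmc genes) that unfold substrates, and its lid holds the enzyme that removes ubiquitin. In cells exposed to interferon or in immune cells, the catalytic subunits can be replaced by the immunoproteasome subunits Psmb8, Psmb9 and Psmb10, and other caps (Psme genes) can open the gate. When proteasome activity is short, the transcription factor NRF1 (Nfe2l1) is known to raise the proteasome genes together through antioxidant response elements in their promoters.

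The 47 members were 14 constitutive core subunits, 2 core subunits of testis and thymus, 3 immunoproteasome subunits, 9 base subunits, 8 lid subunits, 3 activators, the inhibitor Psmf1 and 7 assembly chaperones. The members without a test were Psma8 and Psmb11, the core subunits of testis and thymus, which lay under the log2 limit of 4.40 in every group. Psme2, the partner of the activator Psme1, was represented only by a probe set that carries a further symbol, so it is not a member here. The values are log2 signals, and levels of different probe sets were not compared.

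As examples of promoters of members that were higher after MMS at 24 h, the 250 bases before the transcription start are given for 3 of them. They are from the RefSeq promoter table of GRCm38.p6, 5′ to 3′ on the strand of the gene. Psmb5 and Psmb6, which encode catalytic beta subunits, hold the core of an antioxidant response element (TGACNNNGC), printed in capitals. Psma1, an alpha subunit that rose more than most members, holds none in this stretch. The positions are chr14:54617996-54618245 on the minus strand for Psmb5, chr11:70525107-70525356 on the plus strand for Psmb6 and chr7:114276117-114276366 on the minus strand for Psma1.
Psmb5: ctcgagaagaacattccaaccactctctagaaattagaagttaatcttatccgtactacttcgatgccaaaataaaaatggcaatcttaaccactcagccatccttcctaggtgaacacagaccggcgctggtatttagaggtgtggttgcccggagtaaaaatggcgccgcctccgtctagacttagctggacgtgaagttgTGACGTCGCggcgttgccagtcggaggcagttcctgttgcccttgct
Psmb6: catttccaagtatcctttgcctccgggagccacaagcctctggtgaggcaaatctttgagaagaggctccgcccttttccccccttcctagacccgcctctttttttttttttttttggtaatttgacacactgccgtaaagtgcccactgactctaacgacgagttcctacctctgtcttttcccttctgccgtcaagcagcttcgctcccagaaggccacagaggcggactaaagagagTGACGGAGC
Psma1: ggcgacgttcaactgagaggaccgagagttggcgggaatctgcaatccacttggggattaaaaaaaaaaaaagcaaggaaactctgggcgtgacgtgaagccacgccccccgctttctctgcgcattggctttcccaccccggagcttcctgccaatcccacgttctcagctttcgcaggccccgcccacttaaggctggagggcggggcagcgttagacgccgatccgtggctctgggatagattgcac
The motif begins 47 bases before the start in Psmb5 and 9 bases before it in Psmb6. A promoter window of 300 bases was found for 39 of the 47 members. The letters TGACNNNGC, searched on both strands, were present in 6 of these 39 windows (15.4%), those of Psmb5, Psmb6, Psmc6, Psmd9, Psmd12 and Psme4, against 14% of the 27025 genes with a window. CCAAT, the core of the CCAAT box, was present in 14 of the 39 (35.9%), Psma1 among them, against 41.1% of all genes. Of the 31 members with a window that were higher after MMS at 24 h, 5 held TGACNNNGC. These shares are a description of the letters within this short window.

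At 1 h none of the 45 members differed between MMS and control (adjusted p under 0.05, limma), where 0.361% of all 14135 genes were called higher and 0.0283% lower, and at an unadjusted p under 0.05 limma gave 1 member higher and 1 lower. At 8 h 33 members were higher and none was lower, against 28.7% of all genes higher and 25% lower, and the median log2 difference was 0.39 over the members and 0.06 over all genes. At 24 h 38 members were higher and none was lower, against 25% and 19.4% of all genes, with medians of 0.54 and 0.01. At 72 h 4 members were higher and none was lower, against 10.1% and 10.4% of all genes, and the median over the members was 0.05. At an unadjusted p under 0.05 no member was lower at 8, 24 or 72 h. The rise of the proteasome genes was therefore measured at 8 and 24 h, and at 72 h the share of members called higher, 8.89%, was near that of all genes. The fibroblast markers tested, 11 of 12, were above the limit in every group and moved the opposite way: 9 of the 11 were lower and none higher at 8 h (median log2 difference -0.62), 10 were lower and 1 higher at 24 h (-0.83), and 4 were lower at 72 h (-0.22). Their mean log2 signal was 11.15 to 11.24 in control and 10.39 to 10.47 after MMS at 8 h, and 11.08 to 11.20 and 10.04 to 10.48 at 24 h. The part of this change of markers in the values of the proteasome genes was not tested. Groups without overlap, every MMS array above every control array, were found for 35 members at 8 h and 35 at 24 h, against 25% and 23.8% of all genes. Of the other probe sets of called members above the limit, 28 of 29 had the same sign as the probe set used at 8 h and 30 of 34 at 24 h, and those of opposite sign belonged to Psmc2 at 8 h and to Psma3, Psmc2, Psmd11 and Psmd13 at 24 h. When every array was centred on its own median of tested genes, 2736 genes were higher and 3376 lower at 24 h, in place of 3540 and 2745, the median over all genes at that time was -0.06, and the median over the members was 0.46.

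**Figure D1:**
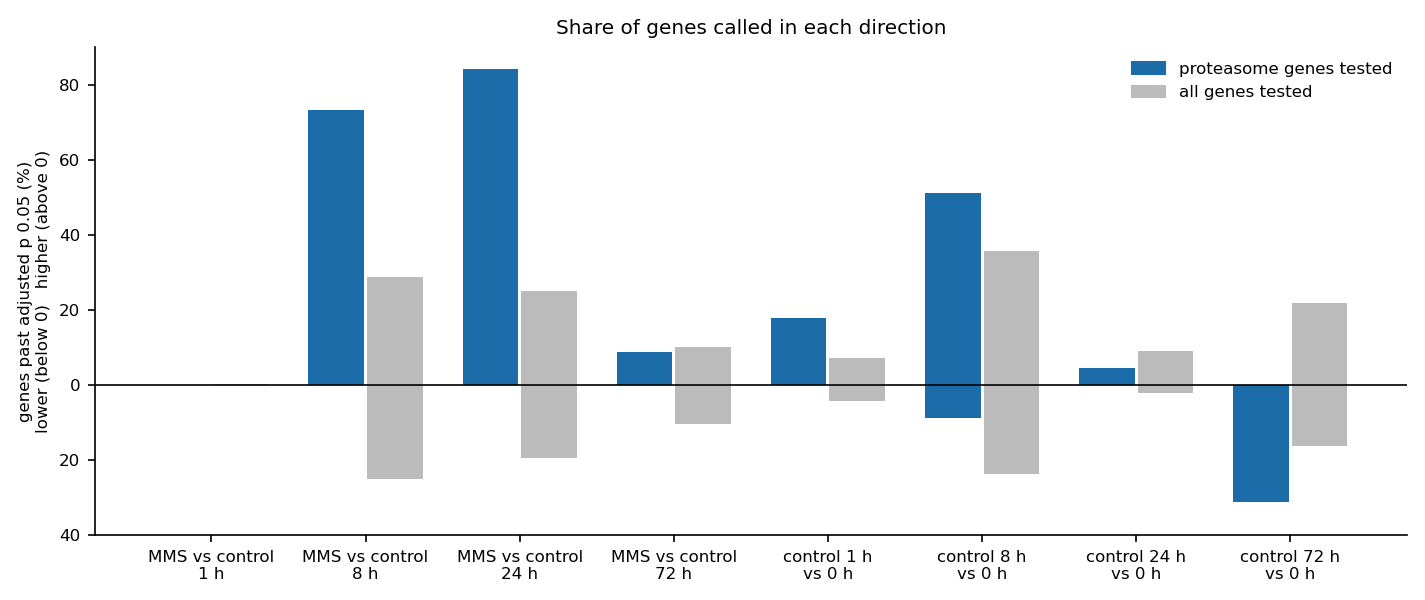
Share of the 45 proteasome genes tested (blue) and of all 14135 genes tested (grey) that passed an adjusted p of 0.05, in percent, higher above the line and lower below it, for each comparison. The blue bars reach 73.3% at 8 h and 84.4% at 24 h after MMS, with no member lower.

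Of the members, 32 were higher at both 8 and 24 h, 6 at 24 h alone by these calls, and 1, the base assembly chaperone Psmd9, at 8 h alone. The difference between the effects was tested directly: 18 members had a larger MMS effect at 24 h than at 8 h and 3 a smaller one, against 23.3% and 22.2% of all genes. With arrays centred on their median, 5 members (11.1%) had a larger effect at 24 h and 3 (6.67%) a smaller one, against 17.4% and 29.4% of all genes. The excess of members called larger was thus not seen under that scaling, while the share called smaller stayed under that of all genes. The median difference of effects was 0.22 over the members and -0.03 over all genes, and 0.10 and -0.15 with centred arrays. From 24 to 72 h the effect became smaller for 33 members and larger for none, against 16.5% and 12.4% of all genes, and none was larger at an unadjusted p under 0.05 either.

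**Figure D2:**
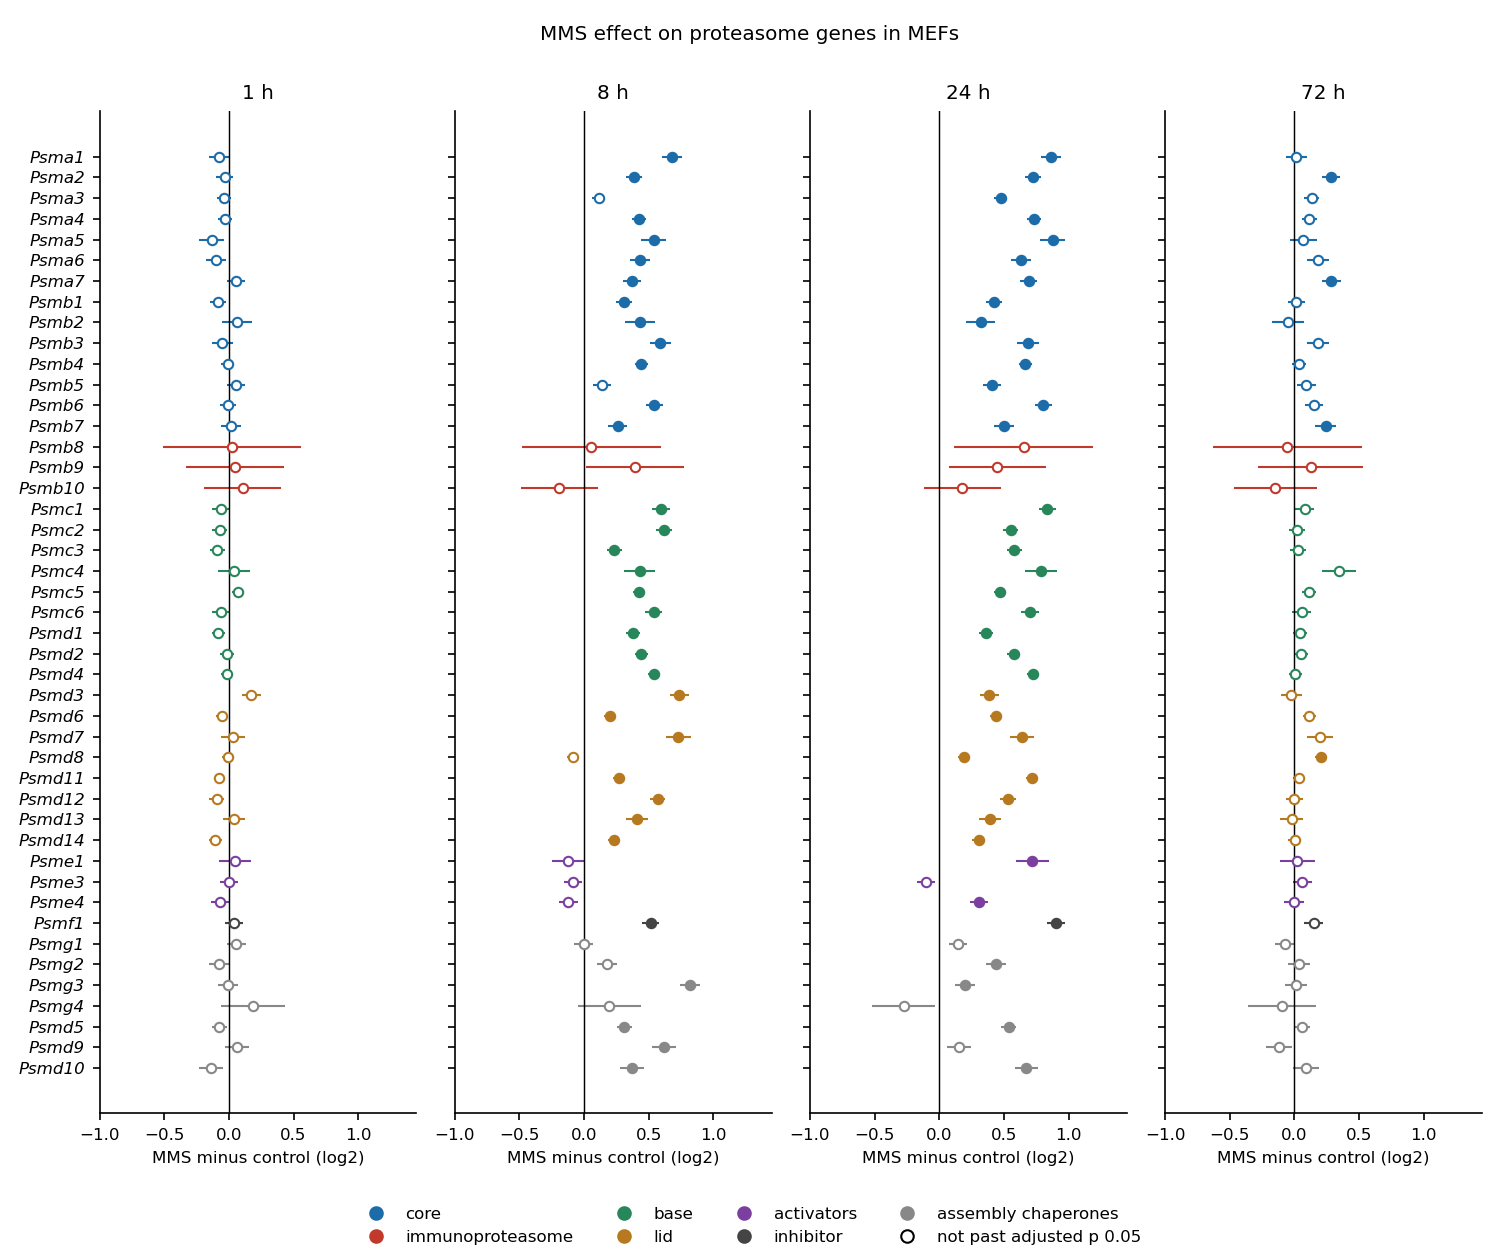
Log2 difference between MMS and control for the 45 members tested, at each time, with bars of 1 standard error from limma, coloured by class. Filled points passed an adjusted p of 0.05: 0 at 1 h, 33 at 8 h, 38 at 24 h and 4 at 72 h, and all filled points lie right of 0.

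The constitutive core rose as a whole at 24 h. All 14 subunits were higher, by 0.32 (Psmb2) to 0.88 (Psma5) on the log2 scale with a median of 0.67, and 12 of the 14 were higher at 8 h, all but Psma3 and Psmb5. Psma1, one of the alpha subunits that form the gated outer ring, had log2 signals of 11.03, 10.91, 11.12 and 10.94 in control and 11.58, 11.79, 11.65 and 11.71 in MMS-treated cells at 8 h. At 24 h it had 10.41, 10.75, 10.71 and 10.75 in control and 11.51, 11.50, 11.54 and 11.53 after MMS. The groups did not overlap at either time, and Psma1 rose 1.61-fold at 8 h (SE 0.08 on the log2 scale, adjusted p = 8.7e-09) and 1.82-fold at 24 h (adjusted p = 1.1e-10). Psma5, another alpha subunit, had 11.05, 11.35, 11.43 and 11.36 in control and 11.98, 12.17, 12.25 and 12.31 after MMS at 24 h. Every MMS array was again above the controls, with a log2 difference of 0.88 (SE 0.10, adjusted p = 7.6e-09).

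The catalytic subunits of the core rose to different extents. Psmb5, which carries the chymotrypsin-like site, had log2 signals of 11.70, 11.56, 11.68 and 11.73 in control and 11.91, 11.76, 11.77 and 11.77 after MMS at 8 h, and the difference of 0.14 did not pass the test (adjusted p = 0.095). Signals at 24 h were 11.51, 11.43, 11.30 and 11.33 in control and 11.94, 11.85, 11.60 and 11.82 after MMS. All MMS arrays lay above the controls at 24 h, and the log2 difference was 0.41 (SE 0.07, adjusted p = 1.1e-05). Psmb6, with the caspase-like site, had 11.45, 11.29, 11.46 and 11.37 in control and 11.95, 11.88, 11.95 and 11.96 after MMS at 8 h. At 24 h it had 11.11, 11.32, 11.15 and 11.24 in control and 12.07, 12.06, 11.84 and 12.07 after MMS. The groups were well apart at both times, and Psmb6 rose 1.46-fold at 8 h (adjusted p = 1.1e-08) and 1.75-fold at 24 h (adjusted p = 4.9e-12). Psmb7, with the trypsin-like site, had 11.97, 12.09, 11.97 and 12.11 in control and 12.64, 12.64, 12.34 and 12.53 after MMS at 24 h, so the difference was 0.50 (SE 0.08, adjusted p = 2e-06).

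The immunoproteasome subunits did not pass the test at any time. Psmb8, which replaces Psmb5, had log2 signals of 4.98, 5.32, 5.11 and 5.36 in control and 5.29, 5.36, 7.17 and 5.56 after MMS at 24 h. The MMS array at 7.17 was replicate 3, and the log2 difference was 0.65 (SE 0.54, adjusted p = 0.36). At 0 h control replicate 3 stood at 9.28 and the other control arrays at 5.14, 5.13 and 5.12. Psmb9, which replaces Psmb6, had 8.05 in that array and 4.86, 5.27 and 4.85 in the others, and Psmb10, which replaces Psmb7, had 9.82 against 7.46, 7.24 and 7.56. These arrays also held intestinal transcripts. The mean log2 signal of 19 intestinal markers was 10.55 in control 0 h replicate 3 and 8.63 in MMS 24 h replicate 3, 6.96 in MMS 1 h replicate 3 and 5.89 in MMS 72 h replicate 3, and at most 5.53 in the other arrays. Without these 4 arrays, an alternative that left the 8 h arrays in place, Psmb9 was higher at 8 h (log2 difference 0.39, adjusted p = 0.0084), Psmb10 was lower at 8 h (-0.19, adjusted p = 0.035), and the difference of Psmb8 at 24 h was 0.21 (adjusted p = 0.28). The same arrays lie outside the 8 h comparison itself, so its log2 differences stayed as they were and the shared estimate of the spread changed. Control 1 h replicate 3 and control 24 h replicate 4 were kept in this alternative. Each had 6 of the 19 intestinal markers more than 1 above the mean of its group's other arrays, against 9 in MMS 72 h replicate 3.

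**Figure D3:**
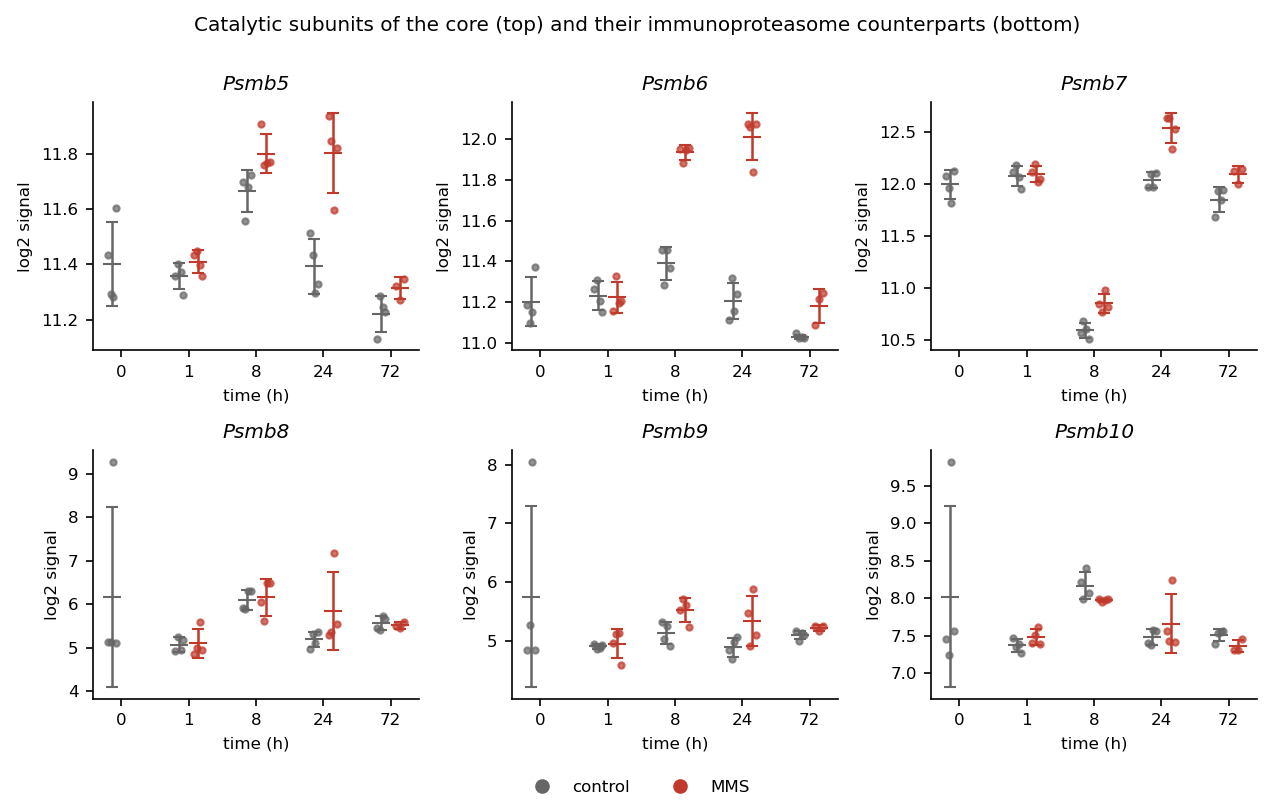
Log2 signal of the catalytic core subunits (top) and the immunoproteasome subunits that replace them (bottom) by time, with 1 point per array, control in grey and MMS in red, and bars of the mean ± SD (n = 4, MMS at 72 h n = 3). Control 0 h replicate 3 stands at 9.28, 8.05 and 9.82 for Psmb8, Psmb9 and Psmb10, while Psmb6 lies near 12 after MMS at 8 and 24 h. The vertical axes do not start at 0 and differ between panels.

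Whether an immunoproteasome subunit and the one it replaces changed unequally was asked from their difference within each array, in 12 comparisons of 3 pairs and 4 times. None passed after adjustment over the 12, and with the smallest p-values this design allows a single comparison could not have passed whatever its values. The difference Psmb10 minus Psmb7 was lower after MMS at 8 h by -0.45 (exact permutation test, two-sided p = 0.0286, the smallest that 4 arrays against 4 allow, adjusted p = 0.34). At 72 h it was lower by -0.39 (exact permutation p = 0.0571, the smallest possible with 3 arrays against 4, adjusted p = 0.34). At 24 h the value of this pair was -0.32, and -0.58 without the arrays with intestinal transcripts (exact permutation p = 0.0571, adjusted p = 0.39 over the 9 comparisons affected).

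The base of the regulatory particle rose at both times in every subunit. All 9 base genes were higher at 8 h, by 0.23 (Psmc3) to 0.62 (Psmc2), and all 9 at 24 h, by 0.36 (Psmd1) to 0.84 (Psmc1). Psmc1, an ATPase of the base, had log2 signals of 10.44, 10.41, 10.41 and 10.37 in control and 10.97, 10.86, 11.06 and 11.11 after MMS at 8 h. Signals at 24 h were 10.37, 10.67, 10.56 and 10.79 in control and 11.39, 11.36, 11.58 and 11.42 after MMS. The groups did not overlap, and the log2 difference was 0.60 at 8 h (SE 0.07, adjusted p = 1.4e-08) and 0.84 at 24 h (adjusted p = 2.2e-11). Psmc2, another ATPase, rose 1.54-fold at 8 h (adjusted p = 2.7e-10) by its brightest probe set. A second probe set nearly as bright (mean log2 11.77) gave a log2 difference of 0.72. Another, near the limit (mean log2 4.69), gave -0.12. Psmd2, a scaffold subunit that binds ubiquitin-like domains, rose by 0.44 at 8 h and 0.57 at 24 h.

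The lid subunits rose with a different order of size. Of 8, 7 were higher at 8 h and all 8 at 24 h. Psmd3, a structural lid subunit, had log2 signals of 9.88, 9.89, 9.93 and 9.91 in control and 10.74, 10.59, 10.63 and 10.59 after MMS at 8 h. At 24 h it had 9.97, 9.67, 9.56 and 9.79 in control and 10.21, 10.19, 9.94 and 10.20 after MMS. The groups were apart at 8 h and overlapped at 24 h, and the effect fell by 0.35 on the log2 scale between these times (adjusted p = 0.0067). Psmd7, which pairs with the deubiquitinating subunit Psmd14, rose by 0.73 at 8 h (SE 0.09, adjusted p = 8.1e-08) and by 0.64 at 24 h. Psmd14 itself rose by 0.23 and 0.30. Psmd8 was the lid subunit that did not pass at 8 h (-0.09), and it was higher at 24 h by 0.19 (adjusted p = 0.00052) and at 72 h by 0.20 (adjusted p = 0.0014).

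The activators did not pass at 8 h, and 2 of the 3 were higher at 24 h. Psme1, a subunit of the interferon-inducible cap, had log2 signals of 9.39, 9.37, 9.45 and 9.39 in control and 9.39, 9.16, 9.27 and 9.30 after MMS at 8 h. Signals at 24 h were 9.40, 9.43, 9.31 and 9.25 in control and 10.15, 10.04, 9.99 and 10.10 after MMS. The groups were clear of each other at 24 h only, with a log2 difference of 0.72 (SE 0.13, adjusted p = 1.9e-05), and the effect was larger at 24 h than at 8 h by 0.84 (adjusted p = 0.00025). Replicate 3 was the lowest of the MMS arrays at 24 h, and without the arrays with intestinal transcripts the difference was 0.75. Psme4, the large single-chain cap, rose 1.24-fold at 24 h (adjusted p = 0.00076), and its difference at 8 h was -0.12 (adjusted p = 0.16). Psme3, the nuclear cap, had differences of -0.08 at 8 h (adjusted p = 0.33) and -0.10 at 24 h (adjusted p = 0.25). A further probe set of Psme3 above the limit gave 0.65 at 8 h and -0.31 at 24 h, so its probe sets disagreed at 8 h.

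Psmf1, a protein that inhibits the core particle in vitro, had the highest log2 difference of the members at 24 h when each gene was taken by its brightest probe set. It had log2 signals of 8.20, 8.28, 8.46 and 8.30 in control and 8.92, 8.81, 8.80 and 8.78 after MMS at 8 h. At 24 h it had 8.35, 8.24, 7.98 and 8.23 in control and 9.11, 9.19, 9.003 and 9.11 after MMS. No array overlapped at either time, and Psmf1 rose 1.43-fold at 8 h (adjusted p = 1.7e-07) and 1.87-fold at 24 h (SE 0.07 on the log2 scale, adjusted p = 2.8e-12). By this probe set the effect was larger at 24 h than at 8 h by 0.39 (adjusted p = 0.0014). The other 3 probe sets of Psmf1, all above the limit, had log2 differences of 0.57, 0.39 and 0.67 at 8 h and 0.36, 0.51 and 0.32 at 24 h, so all were above 0 at both times while the size and its order between the times differed by probe set.

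**Figure D4:**
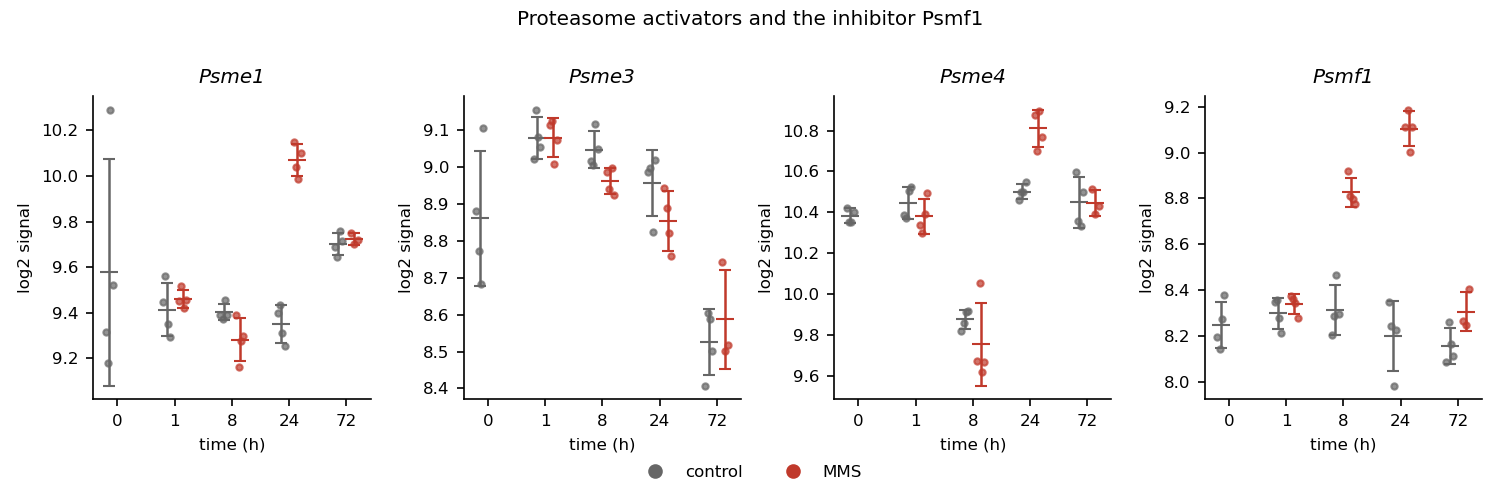
Log2 signal of the activators Psme1, Psme3 and Psme4 and of the inhibitor Psmf1 by time, with 1 point per array, control in grey and MMS in red, and bars of the mean ± SD (n = 4, MMS at 72 h n = 3). Psme1 stands at 9.99 to 10.15 after MMS at 24 h against 9.25 to 9.43 in control, and Psmf1 is above control at 8 and 24 h. The vertical axes do not start at 0 and differ between panels.

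Of the 7 assembly chaperones, 4 were higher at 8 h and 4 at 24 h. Psmg3, which helps to build the alpha ring, had log2 signals of 9.66, 9.78, 9.75 and 9.53 in control and 10.69, 10.47, 10.41 and 10.42 after MMS at 8 h. Signals at 24 h were 8.95, 8.85, 8.97 and 8.72 in control and 9.15, 9.17, 8.87 and 9.10 after MMS. The groups were apart at 8 h and overlapped at 24 h. Psmg3 rose 1.76-fold at 8 h (SE 0.08 on the log2 scale, adjusted p = 2.3e-10), the highest value of any member at that time, and its effect fell by 0.62 on the log2 scale from 8 to 24 h (adjusted p = 2.9e-05). Psmd9, a base chaperone, rose by 0.62 at 8 h, and its difference at 24 h was 0.15. Psmd5 and Psmd10, further base chaperones, rose at both times, by 0.31 and 0.37 at 8 h and by 0.54 and 0.67 at 24 h.

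At 72 h the members higher after MMS were Psma2, Psma7, Psmb7 and Psmd8. Psma7, an alpha subunit, had log2 signals of 10.82, 10.90, 10.94 and 10.83 in control and 11.02, 11.10 and 11.35 after MMS, a difference of 0.28 (SE 0.07, adjusted p = 0.0044). Psma2 was higher by 0.28 (adjusted p = 0.0024) and Psmb7 by 0.24 (adjusted p = 0.03). The groups of these 4 members did not overlap, as for 9 members in all and 14.1% of all genes, and without the arrays with intestinal transcripts, of which MMS 72 h replicate 3 is one, Psma2 (0.23, adjusted p = 0.04) and Psmd8 (0.20, adjusted p = 0.011) passed and Psma7 (0.19, adjusted p = 0.083) and Psmb7 (0.22, adjusted p = 0.068) did not.

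The proteasome genes also changed with time in control cells, most at 8 h. Against 0 h, 23 members rose and 4 fell at 8 h, against 35.8% and 23.6% of all genes. At 1 h 8 were higher and none lower (7.22% and 4.38% of all genes), at 24 h 2 were higher and none lower (9.12% and 2.06%), and at 72 h none was higher and 14 were lower (21.8% and 16.3%). At an unadjusted p under 0.05 by limma, 3 members were lower at 1 h, 2 lower at 24 h and 1 higher at 72 h. Shares of all genes were taken at the adjusted limit only. Of those lower, 2 at 1 h and 1 at 24 h were immunoproteasome subunits. Control 0 h replicate 3 stood at 9.28, 8.05 and 9.82 for Psmb8, Psmb9 and Psmb10, above the other 0 h arrays. The 2 members higher at 24 h were the base subunits Psmd1, by 0.22, and Psmd2, by 0.17. Control replicates at each time are shared with the MMS comparison of that time, so these values and the MMS differences are not independent. Psmb7 had log2 signals of 12.08, 11.96, 11.82 and 12.12 at 0 h and 10.56, 10.68, 10.61 and 10.51 in control at 8 h, a difference of -1.41 (SE 0.08, adjusted p = 8.3e-16). It then stood at 10.84, 10.76, 10.97 and 10.82 after MMS at 8 h. Both 8 h groups were therefore below every other array of this gene, and the MMS effect within 8 h was 0.26 (adjusted p = 0.0041). Psmc4, an ATPase of the base, went the other way, from 10.49, 10.43, 10.54 and 10.50 at 0 h to 11.93, 12.16, 12.14 and 11.91 in control at 8 h, 2.91-fold higher (adjusted p = 6.3e-12). Its other probe set gave a log2 difference of 0.41 between the same groups, against 1.54 for the one used, so the size of this rise depended on the probe set. Psmb2, a core subunit, was 2.09-fold higher in control at 8 h, the alpha ring chaperone Psmg4 2.00-fold higher, and the lid subunit Psmd13 fell by 0.73 on the log2 scale. Psmb7 and Psmb2 had no further probe set of their symbol alone, so their changes could not be compared between probe sets. Other probe sets of Psmd11, Psme3 and Psme4 moved in the opposite direction between 0 and 8 h in control cells. For Psme3 one of mean log2 8.20 gave -1.85, against 0.19 for the one used. For Psmd11 one of mean log2 10.19 gave 0.63, and dim ones (5.50 and 4.77) gave 0.31 and 0.30. The one used for Psmd11 gave -0.24, and others of mean log2 10.64 and 10.30 gave -0.24 and -0.09. For Psme4 the opposite one was dim (mean log2 4.97, difference 0.31), while brighter ones gave -0.51 and -2.02. For Psmd13 a dim probe set (mean log2 5.68) had a difference of 0.0014, and a brighter one (8.99) gave -0.38.

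**Figure D5:**
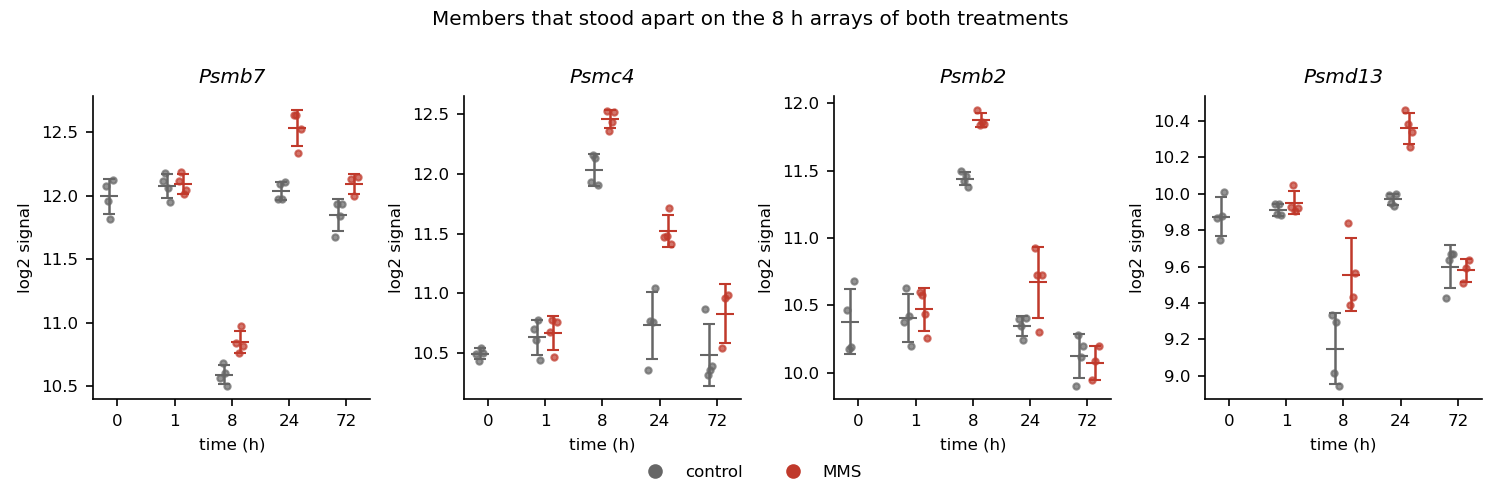
Log2 signal of Psmb7, Psmc4, Psmb2 and Psmd13 by time, with 1 point per array, control in grey and MMS in red, and bars of the mean ± SD (n = 4, MMS at 72 h n = 3). The 8 h arrays of both treatments stand apart from the other times for Psmb7 (low, 10.51 to 10.97), Psmc4 (high, 11.91 to 12.53) and Psmb2 (high). For Psmd13 only the control 8 h arrays do, and its MMS 8 h arrays (9.39 to 9.84) overlap the 72 h arrays. Within 8 h the MMS mean is above the control mean in each panel. The vertical axes do not start at 0 and differ between panels.

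The 8 h arrays also stood apart in all genes, all 8 of them beyond every other array on the first principal component (44.5% of the variance). Of 18 macrophage markers 16 were tested, and their mean log2 signal was 8.54 to 8.70 in control and 8.00 to 8.18 after MMS at 8 h, and at most 6.13 in any other array. All 16 were higher in control at 8 h than at 0 h. The part of these transcripts in the 8 h values of the proteasome genes was not tested. Where 8 h is compared with another time, the hours passed and this difference of the 8 h arrays cannot be told apart.

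How alike the members were over the arrays was described by the correlation of each gene with the median of the constitutive core, leaving out the gene itself, over 35 arrays that share the 9 groups. The median r was 0.95 for the core, 0.87 for the base, 0.89 for the lid, 0.75 for the assembly chaperones, 0.24 for the immunoproteasome subunits and 0.14 for the activators, and r was 0.91 for Psmf1. Over the 27 arrays without the 8 h groups the medians were 0.95, 0.95, 0.90, 0.66, 0.04 and 0.55 in the same order of classes. Within the core Psmb7 had an r of -0.29, and 0.90 without the 8 h groups. Psme4 went from -0.24 to 0.78 and Psmd13 from 0.16 to 0.85 in the same way.

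Among proteins that bind or build the proteasome, 10 of 15 tested rose and 2 fell at 8 h (28.7% and 25% of all genes), and 7 rose and none fell at 24 h (25% and 19.4%). The 2 that fell were Ube3c and Ecpas. Ube3c had log2 signals of 8.64, 8.94, 8.68 and 8.92 in control and 8.73, 8.46, 8.60 and 8.56 after MMS at 8 h. Ecpas had 8.66, 8.61, 8.59 and 8.85 in control and 8.43, 8.61, 8.47 and 8.30 after MMS, and the groups of both overlapped. Zfand2a, a stress-induced protein that binds the regulatory particle, rose by 0.46, 1.78, 1.32 and 0.71 at 1, 8, 24 and 72 h (adjusted p at most 0.0041), and Zfand5, which activates the proteasome, rose by 1.30 at 8 h. Pomp, needed for assembly of the core, rose by 0.25 and 0.34 at 8 and 24 h, Uchl5, a deubiquitinase of the regulatory particle, by 0.43 and 0.54, and Usp14, another, by 0.24 and 0.56, but with the mean of all its probe sets Usp14 was lower at 8 h (-0.19). Adrm1, the receptor that binds Uchl5, had no probe set of its own symbol. In the list on NRF1 and its control, 6 of 7 tested rose and 1 fell at 8 h, and 3 rose and 2 fell at 24 h, beside the same shares of all genes. Nfe2l1 had log2 signals of 10.16, 10.14, 10.18 and 10.27 in control and 10.62, 10.60, 10.61 and 10.59 after MMS at 8 h, a rise of 0.41 (adjusted p = 0.001). At 24 h it had 10.25, 10.00, 9.79 and 9.92 in control and 9.80, 9.68, 9.37 and 9.58 after MMS, and fell by 0.38 (adjusted p = 0.0027). The groups did not overlap at 8 h and overlapped at 24 h. Nfe2l2, which encodes the related factor NRF2, rose by 1.03 at 8 h (adjusted p = 1.5e-10) and 0.34 at 24 h. Of the ubiquitin list 1 gene of 6 was tested, the activating enzyme Uba6, which fell by 0.21 at 8 h and by 0.25 at 24 h and rose by 0.56 at 72 h.

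In the list on class I antigen presentation, which uses peptides made by the proteasome, 3 of 10 tested rose at 8 h, a share near the 28.7% of all genes, and 7 at 24 h, against 25%, and none was lower. Tap1, the peptide transporter whose gene lies between Psmb9 and Psmb8 in the reference gene order, had log2 signals of 6.72, 6.79, 6.81 and 6.62 in control and 8.35, 8.34, 8.03 and 8.12 after MMS at 24 h. It was higher by 1.47 (adjusted p = 3.3e-08), and by 1.53 without the arrays with intestinal transcripts, while neither neighbour passed the test. Both neighbours were dim, near the limit of 4.40, with control signals at 24 h of 4.98 to 5.36 for Psmb8 and 4.69 to 5.06 for Psmb9. H2-K1 and H2-D1, heavy chains of class I, rose by 1.39 and 1.43 at 24 h. MMS 24 h replicate 3 was the highest array of both, at 10.89 for H2-K1 and 11.96 for H2-D1, and without the arrays with intestinal transcripts the differences were 1.18 and 1.21. Nlrc5, an activator of class I genes, also passed, but its control arrays at 24 h lay under the limit of 4.40 (3.44 to 3.65), so no size is given for it. Irf1, an interferon-induced factor, had log2 signals of 7.73, 7.60, 7.73 and 7.54 in control and 7.82, 7.79, 8.20 and 7.80 after MMS at 24 h. The groups did not overlap, MMS replicate 3 was the highest, and the difference of 0.26 did not pass the test (limma, adjusted p = 0.44). That test shares its spread with control 0 h replicate 3, at 9.67 against 7.69, 7.81 and 7.74 in the other 0 h arrays.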

How the data were processed

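Expression of 35 RNA samples was analysed, with groups taken from the sample labels. The authors deposited log2 values of 45101 probe sets, normalized with RMA (version not stated). The study's methods name a smaller array of the same design, and the probe annotation used here fits the table's 45101 probe sets. Only the 34958 probe sets with 1 symbol were used (932 carry several, 9211 none), and 34754 (99.4%) had a gene identifier in the reference. Each gene was represented by its probe set of highest mean. Genes with a group mean at or above the 40th percentile of all values (log2 4.40) were tested in limma 3.58.1 (R 4.3.3), in 1 model of 9 groups with 26 residual degrees of freedom, two-sided, Benjamini-Hochberg adjusted over 14135 genes. Pairs of subunits were compared with exact permutation tests (scipy 1.17.1). The number of arrays limits the precision. Alternatives changed the normalization, filter, probe set, arrays in the model, weights, variance prior and block, and left out each array in turn. The members, classes and lists were chosen with earlier results of these data known. Genes named are Psmb5 to Psmb10, Psme1 to Psme4, Psmf1, the 5 largest rises and falls per time among calls without overlap, the 3 largest changes of control cells per time and set genes of the related lists. Other members are named as examples of their class, chosen after their values were seen.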

Additional observations from a re-analysis of the deposited data

Results flagged for a closer look

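In 24 of 224 groups of 4 arrays of the named members, 1 array lay far from the other three, where chance gives about 1 in 20 groups. Of these, 10 were in the arrays with intestinal transcripts. In control 0 h replicate 3 the high values were 9.28 for Psmb8, 8.05 for Psmb9 and 9.82 for Psmb10. In MMS 24 h replicate 3 Psmb8 (7.17), Psmb10 (8.25), Psmd7 (11.11) and Psma6 (12.37) were high, and Psmb6 (11.84) and Psmd3 (9.94) were low. In MMS 1 h replicate 3 Psmd7 (10.30) was low. In control 0 h replicate 4 Psma7 (11.45) and Psma2 (12.35) were high. In control 1 h replicate 4 Psma2 (12.18) and Psma6 (11.70) were low. In MMS 1 h replicate 2 Psmd13 (10.05) was high. At 8 h Psmb5 (11.91) and Psmb2 (11.95) in MMS replicate 1 and Psme4 (10.05) in MMS replicate 2 were high, and Psmb6 (11.88) in MMS replicate 2 was low. In control cells at 24 h Psma1 (10.41) was low in replicate 1 and Psma7 (11.23) high in replicate 2. In control 72 h replicate 1 Psmc4 (10.87) was high, and Psmb10 (7.39) and Psmd13 (9.43) were low.

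The MMS effect differed between 8 and 24 h by limma's test of the difference for 12 named members. It was larger at 24 h for Psme1 (0.84), Psme4 (0.43), Psmf1 (0.39), Psma5 (0.34), Psma2 (0.34), Psma7 (0.32), Psmd8 (0.28), Psmb5 (0.27), Psmb6 (0.26) and Psmc1 (0.24) on the log2 scale. It was smaller at 24 h for Psmg3 (-0.62) and Psmd3 (-0.35). With arrays centred on their median, only 5 of the 45 members had a larger effect at 24 h, in place of 18. For Psmf1 the order between the times also differed by probe set.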

How the results depend on the processing

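Of the counts of members, those higher after MMS at 8 h (33 to 35) and 24 h (35 to 40), and those whose effect was smaller at 72 h than at 24 h (23 to 38), stayed within 1.5 times of 33, 38 and 33 under every alternative run. Members lower at 8 h numbered 1 with quantile normalization, 2 with the mean of all probe sets, 1 with array weights and 1 without the arrays with intestinal transcripts (0 to 1 leaving out single arrays). Members higher at 72 h numbered 1 with only the groups compared, 15 with array weights and 2 without the arrays with intestinal transcripts (2 to 6, with 2 without MMS 72 h replicate 3), and 1 was lower with array weights. In control cells against 0 h, members higher at 1 h numbered 4 with quantile normalization, 0 with only the groups compared, 14 with array weights and 5 without the arrays with intestinal transcripts (4 to 10), and 1 was lower with array weights and 1 without those arrays (0 to 1). Members higher at 24 h numbered 1 with centred arrays, with no filter, with the mean of all probe sets and without the arrays with intestinal transcripts, 0 with only the groups compared and 6 with array weights (1 to 3), and 1 was lower with array weights (0 to 1). Members higher at 72 h numbered 1 with no filter, with the 60th percentile filter and with the mean of all probe sets, and 2 with array weights and without the arrays with intestinal transcripts (0 to 1), and those lower 8 with only the groups compared and 25 with array weights (9 to 17, with 9 without control 0 h replicate 4). Members with a larger effect at 24 h than at 8 h numbered 5 with centred arrays (16 to 20). With the mean of all probe sets the sign turned for Psme3 in control at 8 h (-0.25), Usp14 (-0.19) and Vcp (-0.050) after MMS at 8 h, Ecpas after MMS at 72 h (0.11) and Ubqln4 in control at 8 h (-0.28). The cause was not tested. No label says what a replicate number shares, and the numbers were not taken to pair the samples, since correlations of same-numbered deviations were 0.093 to 0.311 at 1 h, -0.038 to 0.114 at 8 h, -0.261 to 0.158 at 24 h and 0.019 to 0.178 at 72 h. The MMS arrays closest to the control of their own number were 3 of 4 at 1 h, 3 of 4 at 8 h, 1 of 4 at 24 h and 1 of 3 at 72 h, and with the replicate block the counts of members higher were again 33 at 8 h and 38 at 24 h, with no count of members changed. Many members were far above the background of the arrays, while Psma8 and Psmb11 were too dim to test.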
